A study of Homo sapiens with 6 samples.

Results

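The genes FKBP5, ACP3, CAMKK2, PMEPA1, SPDEF, FOXA1, STEAP1 and STEAP2 are used as markers of luminal prostate epithelium or of the androgen response. They were chosen by symbol as a set of 8 out of 30651 genes listed with counts. Each symbol had 1 row in the count table. The 6 RNA-seq libraries came from PC-3, an established line grown from a human prostate cancer that had spread to bone. The control group (Ctrl, columns named NC) and the group named after MTA1 (columns named shMTA1, the usual prefix of a short hairpin RNA) held 3 libraries each. MTA1 is part of NuRD, a complex that remodels chromatin and removes histone acetylation. The labels name lentivirus and the screening of stable clones for both groups alike. They give neither the hairpin sequence, the number of clones, a time after transduction, nor a statement that each library had its own culture. All p-values thus rest on the spread among these libraries alone, and that spread may be technical.

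Luminal cells line the prostate ducts, secrete into them and depend on androgen. Steroid hormones act through nuclear receptors held ready by heat shock proteins and immunophilins, and hormone-bound receptors occupy enhancers opened by pioneer factors such as FOXA1. Many genes induced by androgens are also induced by glucocorticoids through the glucocorticoid receptor (NR3C1). PC-3 is a long-established model of prostate cancer that grows without androgen.

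Short stretches of promoter are shown for the 3 genes of the set that changed and for SPDEF, which was almost silent, so that their base composition can be compared with their levels. They are RefSeq sequences of build GRCh38.p14, written 5′ to 3′ in the direction of the gene, and end at or shortly before its start. Only the part outside every exon of GENCODE 29 is shown. Capitals mark every match to the motifs searched.
CAMKK2, chr12:121296754-121296959, minus strand: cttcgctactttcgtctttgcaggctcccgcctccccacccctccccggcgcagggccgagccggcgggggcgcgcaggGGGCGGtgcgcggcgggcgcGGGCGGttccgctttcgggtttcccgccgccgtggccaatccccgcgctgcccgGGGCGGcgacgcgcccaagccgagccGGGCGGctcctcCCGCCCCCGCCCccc
ACP3, chr3:132317157-132317366, plus strand: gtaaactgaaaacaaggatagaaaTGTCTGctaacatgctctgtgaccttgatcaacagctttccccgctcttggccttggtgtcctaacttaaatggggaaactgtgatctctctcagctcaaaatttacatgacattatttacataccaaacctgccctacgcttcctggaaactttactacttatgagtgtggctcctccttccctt
PMEPA1, chr20:57710016-57710182, minus strand: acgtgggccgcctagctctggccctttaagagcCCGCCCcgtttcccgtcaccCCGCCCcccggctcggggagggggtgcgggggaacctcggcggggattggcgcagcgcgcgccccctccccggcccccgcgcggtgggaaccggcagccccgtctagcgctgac
SPDEF, chr6:34556334-34556579, minus strand: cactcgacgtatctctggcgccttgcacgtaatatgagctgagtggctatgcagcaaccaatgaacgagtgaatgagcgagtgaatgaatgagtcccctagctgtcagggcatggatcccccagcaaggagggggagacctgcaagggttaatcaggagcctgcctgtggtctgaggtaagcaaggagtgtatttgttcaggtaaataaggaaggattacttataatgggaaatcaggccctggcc

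The promoters differed widely in composition. In the 250 bases before the start, CAMKK2 held 46 CpG dinucleotides, more than 99.6% of 35114 RefSeq windows of that length, and its GC content was 82.8%. ACP3 held 2 CpG, more than 14.7% of the windows, and had a GC content of 42.0%. The 2 genes of the set that rose thus had a promoter rich in CpG and a promoter poor in them. SPDEF held 6 CpG, against a median of 11 over all windows. FOXA1 held 26 CpG and STEAP1 21. PMEPA1 has 4 such windows in RefSeq, with 6, 14, 33 and 9 CpG, and the stretch shown comes from the third. FKBP5 and STEAP2 have 2 windows each, with 3 and 29 CpG for FKBP5 and 21 and 2 for STEAP2.

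Motifs were searched on both strands of the 13 windows of the 8 genes. The full palindromic element of steroid receptors was in none of them and in 1 of the 35114 windows. The shorter receptor motif TGTTCT is contained in the full one. It was found once, 229 bases before the second PMEPA1 start, and 12.4% of all windows held it. CAGACA, a SMAD-binding box, was in 1 window each of FKBP5, ACP3 and PMEPA1, against 13.6% of all windows. The forkhead motif TGTTTAC was found once, in the second STEAP2 window, against 2.98%. GC boxes (GGGCGG) were in 6 of the 13 windows, with 8 of them in that of CAMKK2, against 42.6% of all windows. TATAAA was found only in the second STEAP2 window (10.7% of all windows), and the CRE TGACGTCA (1.65%) and the SMAD palindrome GTCTAGAC (0.182%) in none. These matches describe the letters of the windows and do not show binding.

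The libraries held 29909172 to 33849262 counts. MTA1 had 1185 to 1352 counts per Ctrl library and 519 to 572 per MTA1 library, so the targeted gene was lower throughout the group named after it. Its level fell to 43.4% of the control level (log2 fold change -1.21 ± 0.054 SE, edgeR adjusted p = 4.3e-13). Levels below are CPM, which are counts relative to the TMM-scaled library size, as mean ± SD with n = 3 per group. Changes are log2 ratios, MTA1 group over Ctrl, ± SE. A gene rose or fell where edgeR's quasi-likelihood test gave an adjusted p under 0.05 over the 15423 genes with enough counts. By that rule 58.1% of all tested genes passed, 29.5% as higher and 28.6% as lower, with a median log2 fold change near 0 and a median absolute log2 fold change of 0.29. The balance of higher and lower calls moved with the scaling, from 4550 against 4404 here to 5376 against 3574 with library size only and 5043 against 3345 in limma on log2(FPKM + 0.1). On log2(FPKM + 1) it was 5070 against 3335.

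Of the 8 genes, 6 had enough counts to be tested. CAMKK2 and ACP3 rose, PMEPA1 fell, and FKBP5, FOXA1 and STEAP1 did not pass. SPDEF and STEAP2 were near the detection limit and were not tested. The 3 calls among 6 tested genes stand beside 58.1% over all tested genes, so the set changed about as often as genes at large. The median log2 fold change of the 6 tested genes was -0.06. The libraries of the groups did not overlap for CAMKK2, ACP3 and PMEPA1, against 62.7% of all tested genes. When the test asked for a change of more than 1.2-fold, an alternative added once the data had been seen, CAMKK2 and PMEPA1 still passed, against 30.1% of all tested genes, and ACP3 did not (edgeR adjusted p = 0.0959).

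**Figure D1:**
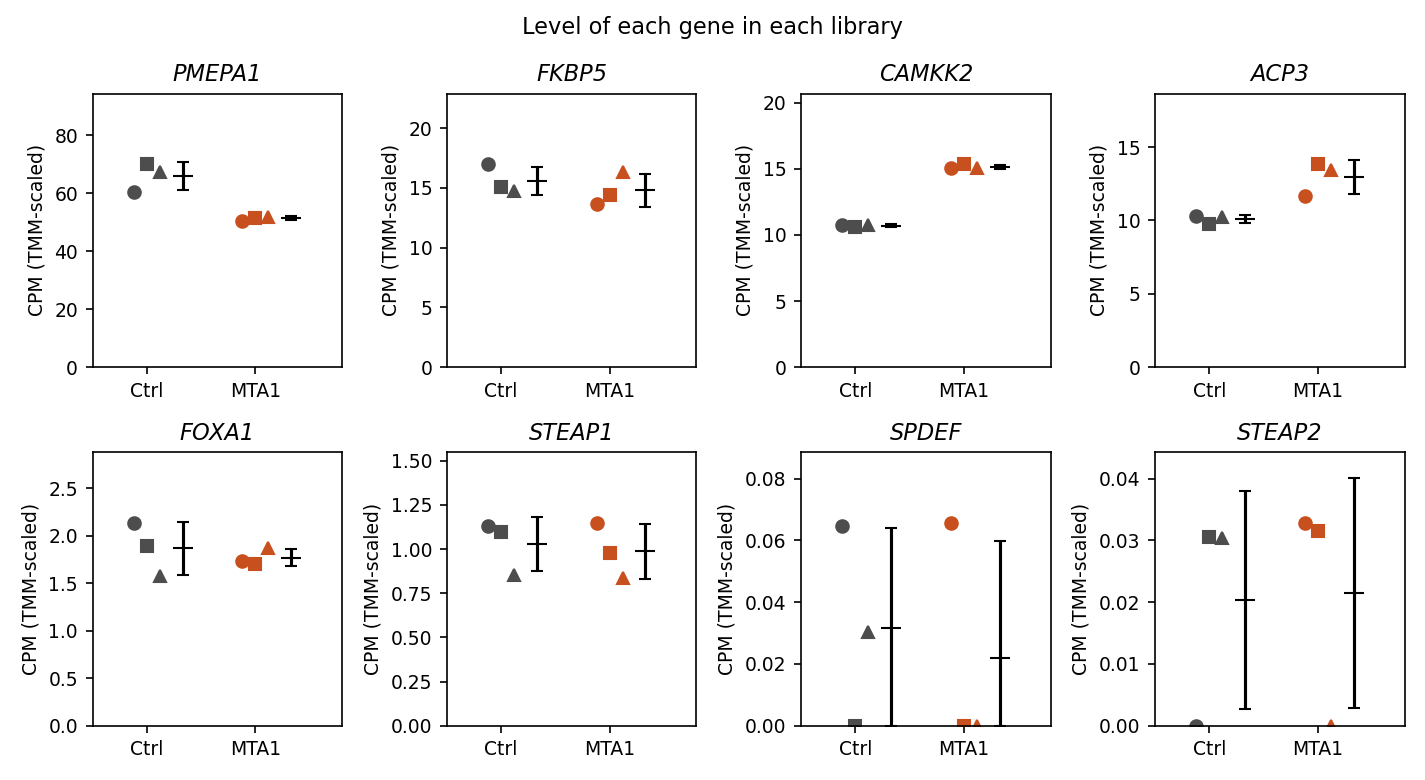
Level of each of the 8 genes in CPM (vertical axes from 0, each with its own range) in the 3 Ctrl (grey) and 3 MTA1 (orange) libraries, with circle, square and triangle for replicates 1, 2 and 3 and the mean ± SD at the right of each group (lower bars stop at 0). The groups are apart for PMEPA1, CAMKK2 and ACP3 and overlap for the other genes, and SPDEF and STEAP2 stay under 0.1 CPM.

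The 2 transcription factors of the set were low or nearly silent. FOXA1 (ENSG00000129514.8, chromosome 14), a forkhead pioneer factor that opens chromatin for steroid receptors, stood at 2.14, 1.89 and 1.58 CPM in Ctrl replicates 1, 2 and 3 and at 1.74, 1.703 and 1.87 CPM in the MTA1 replicates. All 3 MTA1 values lay inside the Ctrl range. The log2 fold change was -0.08 ± 0.17 (edgeR adjusted p = 0.728). Its 95% confidence interval ran from 0.740-fold to 1.22-fold, so a modest change in either direction was not detectable at this depth. FOXA1 had 52 to 66 counts per library, and the spread between Ctrl libraries (14.9% of the mean) was close to the 12.9% that counting alone gives. Exons of TTC6 overlap FOXA1 on the other strand, and TTC6 had 17 counts over all libraries.

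SPDEF (ENSG00000124664.11, chromosome 6) encodes an ETS-family factor of secretory epithelia. It had 2, 0 and 1 counts in the Ctrl libraries and 2, 0 and 0 in the MTA1 libraries. Summed over a group this is 0.0311 CPM in Ctrl (exact 95% Poisson interval 0.00641 to 0.0908) and 0.0215 CPM in the MTA1 group (0.00260 to 0.0775). The intervals cover counting error only and overlap almost entirely. In a fit without the filter on low counts the change of SPDEF did not pass (edgeR adjusted p = 0.846). Of 26 other ETS factors, 10 had no row in the table or stayed under 1 CPM in both groups. Of 17 tested, 3 rose and 6 fell, around a median of -0.17. ELF3, an epithelial ETS factor, fell from 51.7 ± 0.781 to 36.2 ± 1.73 CPM (-0.51 ± 0.049), and ETV5, which responds to growth factor signalling, rose from 7.11 ± 0.322 to 12.3 ± 0.192 CPM (0.79 ± 0.075, and 0.51 on log2(FPKM + 1)).

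NR3C1, the glucocorticoid receptor, stood at 3.02 ± 0.10 FPKM in Ctrl and 2.77 ± 0.184 FPKM in the MTA1 group. It fell by 0.19 ± 0.055 on the log2 scale, a call that ended with scaling by library size only (-0.12, adjusted p = 0.0741), on log2(FPKM + 0.1) (-0.12, limma adjusted p = 0.145), on log2(FPKM + 1) (-0.09, limma adjusted p = 0.152) and against a minimum fold of 1.2 (edgeR adjusted p = 0.984).

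Among 20 tested cofactors and pioneer factors of steroid receptors, 4 rose and 6 fell, with a median of -0.06. GATA2, a zinc finger factor that acts beside FOXA1, fell from 30.1 ± 0.349 to 19.1 ± 0.530 CPM (-0.66 ± 0.052). FOXP1, another forkhead factor, fell from 25.1 ± 0.791 to 17.2 ± 0.914 CPM (-0.55 ± 0.058, and -0.17 on log2(FPKM + 1)). HOXB13, a homeobox factor of the prostate lineage, fell from 1.58 ± 0.229 to 0.623 ± 0.136 CPM (-1.33 ± 0.23, and -0.29 on log2(FPKM + 1)). Adding 1 FPKM understates the change of genes at a low level. The arginine methyltransferase PRMT1 rose from 94.0 ± 4.33 to 126 ± 7.09 CPM (0.42 ± 0.048). FOXA1, with no call, thus stood beside partners that went both ways.

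FKBP5 (ENSG00000096060.15, chromosome 6) encodes an immunophilin that binds HSP90 in steroid receptor complexes and is induced by androgens and glucocorticoids. It stood at 17.0, 15.1 and 14.7 CPM in Ctrl replicates 1, 2 and 3 and at 13.6, 14.4 and 16.3 CPM in the MTA1 replicates. MTA1 replicate 3 lay within the Ctrl range and the other MTA1 libraries just under it. The means were 15.6 ± 1.21 and 14.8 ± 1.39 CPM, a log2 fold change of -0.07 ± 0.075 (edgeR adjusted p = 0.421). The 95% confidence interval was 0.853-fold to 1.06-fold, so a rise of the size seen for CAMKK2 lies outside it.

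The other parts of the receptor chaperone machinery often passed the test. Of 20 tested chaperones and co-chaperones, 13 rose and 5 fell (90% against 58.1% of all tested genes), with a median of 0.14. Many have high counts and an SE under the 0.084 that was the median of all tested genes, so small changes passed. Examples, chosen after their values were seen, are HSPA4 (0.15 ± 0.038) and STUB1 (0.14 ± 0.041). The share called is thus no measure of the size of change. HSP90AA1 rose from 1690 ± 56.2 to 3247 ± 243 CPM (0.94 ± 0.050), HSP90AB1 from 2199 ± 70.2 to 3917 ± 42.0 CPM (0.83 ± 0.041) and their kinase adaptor CDC37 from 603 ± 13.6 to 809 ± 22.5 CPM (0.43 ± 0.040). BAG1, a nucleotide exchange factor, fell from 1400 ± 29.2 to 1033 ± 22.0 CPM (-0.44 ± 0.040). Of 13 other FKBP-family genes tested, 8 rose and 4 fell. FKBP4, the closest functional counterpart of FKBP5 in receptor complexes, rose from 430 ± 3.07 to 560 ± 34.9 CPM (0.38 ± 0.044), FKBP10, a collagen-folding isomerase of the endoplasmic reticulum, from 286 ± 1.48 to 389 ± 10.2 CPM (0.44 ± 0.038), and FKBPL fell by 0.37 ± 0.051. Pseudogenes of HSP90AA1, HSP90AB1 and FKBP4 may have taken or added reads, so these counts are uncertain.

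Genes that glucocorticoids induce, like FKBP5, went both ways. Of 19 tested, 6 rose and 8 fell, with a median of -0.15. NFKBIA, the NF-kB inhibitor, fell from 297 ± 14.3 to 138 ± 8.85 CPM (-1.11 ± 0.048), the cyclin-dependent kinase inhibitor CDKN1C from 21.96 ± 2.02 to 12.4 ± 0.732 CPM (-0.82 ± 0.072) and the pyruvate dehydrogenase kinase PDK4 from 37.3 ± 1.37 to 24.4 ± 0.931 CPM (-0.61 ± 0.053). ANGPTL4, a lipase inhibitor also induced by low oxygen, rose from 33.3 ± 2.30 to 86.0 ± 4.66 CPM (1.37 ± 0.055).

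PMEPA1 (ENSG00000124225.16, chromosome 20) encodes a membrane protein induced by androgen and by TGF-beta that holds back SMAD signalling. It was the 1 gene of the set that fell. It stood at 60.5, 70.0 and 67.5 CPM in Ctrl replicates 1, 2 and 3 and at 50.6, 51.7 and 51.9 CPM in the MTA1 replicates. The highest MTA1 library was below the lowest Ctrl library. The mean fell from 66.0 ± 4.93 to 51.4 ± 0.707 CPM, to 77.8% of the control level (-0.36 ± 0.052, edgeR adjusted p = 5.7e-06). The SD was 1.38% of the mean among the MTA1 libraries and 7.47% among the Ctrl libraries, where replicate 1 was the low one. The change was -0.43 without that library. In GENCODE 29, exons of PMEPA1 overlap those of NKILA, a non-coding RNA on the opposite strand. NKILA had 41 to 63 counts per library and did not pass (0.17 ± 0.19, edgeR adjusted p = 0.465), against 1541 to 2292 counts for PMEPA1.

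Other genes of the TGF-beta and SMAD pathway were split, 10 higher and 10 lower of 26 tested, with a median of -0.11. The ligand gene TGFB1 rose from 60.9 ± 2.81 to 105 ± 3.76 CPM (0.79 ± 0.046) and the matrix protein TGFBI from 203 ± 2.32 to 331 ± 5.51 CPM (0.71 ± 0.038). The matricellular gene CCN2 fell from 27.7 ± 1.29 to 10.2 ± 1.03 CPM (-1.45 ± 0.069).

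CAMKK2 (ENSG00000110931.19, chromosome 12) encodes a calcium- and calmodulin-activated kinase that switches on AMPK and is induced by androgen in prostate cancer. It had the largest change of the set. It stood at 10.8, 10.6 and 10.8 CPM in Ctrl replicates 1, 2 and 3 and at 15.1, 15.3 and 15.1 CPM in the MTA1 replicates. The groups were far apart, and within each group the libraries differed by less than counting alone would give (0.934% and 0.988% of the mean, against 5.39% and 4.61%). The mean rose from 10.7 ± 0.10 to 15.2 ± 0.150 CPM, to 141% of the control level (0.50 ± 0.065, edgeR adjusted p = 1.5e-06). The absolute change was larger than that of 73.1% of all tested genes.

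The paralog CAMKK1 rose as well, from 27.2 ± 0.814 to 45.8 ± 2.45 CPM (0.75 ± 0.053). Of 22 tested genes around these kinases and AMPK, 7 rose and 5 fell, with a median near 0. The AMPK substrate ACACA, which opens fatty acid synthesis, rose from 40.3 ± 2.08 to 57.9 ± 1.75 CPM (0.52 ± 0.050) and RPTOR, the mTORC1 scaffold, from 35.7 ± 1.69 to 52.4 ± 1.07 CPM (0.56 ± 0.049). TBC1D1, a RAB GTPase-activating protein, fell from 42.8 ± 4.02 to 25.2 ± 1.29 CPM (-0.77 ± 0.064). Of the AMPK catalytic subunits, chosen after their values were seen, PRKAA1 stood at -0.01 ± 0.056 and PRKAA2 at 0.17 ± 0.15 without passing.

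ACP3 (ENSG00000014257.16, chromosome 3) encodes prostatic acid phosphatase, a secreted and membrane-bound enzyme of luminal cells. It stood at 10.3, 9.77 and 10.2 CPM in Ctrl replicates 1, 2 and 3 and at 11.6, 13.8 and 13.4 CPM in the MTA1 replicates. The lowest MTA1 library, replicate 1, was closer to the Ctrl libraries than to the other MTA1 libraries but above them all. The mean rose from 10.1 ± 0.280 to 13.0 ± 1.16 CPM, to 129% of the control level (0.36 ± 0.076, edgeR adjusted p = 4.2e-04). Without MTA1 replicate 1 the change was 0.43. Among the other acid phosphatases, 3 were tested. The lysosomal ACP2 rose from 15.2 ± 0.474 to 24.6 ± 0.919 CPM (0.70 ± 0.058), and ACP1, a cytosolic phosphatase, fell from 49.3 ± 1.86 to 40.7 ± 1.15 CPM (-0.28 ± 0.049). ACP6, a mitochondrial lysophosphatidic acid phosphatase, had the largest change of the 3 and the fewest counts. It fell from 0.711 ± 0.335 to 0.276 ± 0.226 CPM (-1.33 ± 0.44, edgeR adjusted p = 0.0143). That call ended without Ctrl replicate 1 (-0.97, adjusted p = 0.0901) or MTA1 replicate 1 (-1.002, adjusted p = 0.0584), and on log2(FPKM + 0.1) (-0.32, limma adjusted p = 0.0892) and log2(FPKM + 1) (-0.04, limma adjusted p = 0.144). Without MTA1 replicate 2 the change was -2.24.

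STEAP1 (ENSG00000164647.9) and STEAP2 (ENSG00000157214.14) lie next to each other on chromosome 7, with 0 protein-coding genes between them in GENCODE 29, and encode membrane proteins of the prostate epithelium. STEAP2 is a metalloreductase of iron and copper, and STEAP1 is its relative without a reductase domain. STEAP1 stood at 1.13, 1.10 and 0.851 CPM in Ctrl replicates 1, 2 and 3 and at 1.15, 0.978 and 0.838 CPM in the MTA1 replicates, so the groups overlapped over almost their whole range. The log2 fold change was -0.06 ± 0.23 (edgeR adjusted p = 0.853), with a 95% confidence interval of 0.691-fold to 1.34-fold at 26 to 36 counts per library. Its close paralog STEAP1B had 1 to 5 counts per library, and reads that fit both genes could be split between them.

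STEAP2 had 0, 1 and 1 counts in the Ctrl libraries and 1, 1 and 0 in the MTA1 libraries. Over a group this is 0.0207 CPM in Ctrl (exact 95% Poisson interval 0.00251 to 0.0748) and 0.0215 CPM in the MTA1 group (0.00260 to 0.0775). STEAP2 has no row in the FPKM table used here, so its level was not compared with that of STEAP1.

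STEAP3 and STEAP4 stood higher per length, at 10.5 ± 0.651 and 3.49 ± 0.127 FPKM in Ctrl, against 0.573 ± 0.0896 FPKM for STEAP1. STEAP1B stood lower, at 0.0133 ± 0.0058 FPKM in Ctrl. STEAP3, the reductase that works beside the transferrin receptor, rose from 55.6 ± 3.04 to 96.7 ± 2.42 CPM (0.80 ± 0.047). STEAP4, chosen after its values were seen, rose from 45.5 ± 1.87 to 58.0 ± 0.902 CPM (0.35 ± 0.047). Of 7 tested genes for metalloreductases and iron uptake, 5 rose and 1 fell, with a median of 0.35. TFRC, the transferrin receptor, rose from 40.7 ± 2.19 to 73.2 ± 3.43 CPM (0.85 ± 0.051) and the metal importer SLC39A14 from 33.1 ± 0.352 to 51.5 ± 0.966 CPM (0.64 ± 0.047), while the duodenal-type reductase CYBRD1 fell from 8.26 ± 0.201 to 6.53 ± 0.0648 CPM (-0.34 ± 0.081, and -0.15 on log2(FPKM + 1)).

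**Figure D2:**
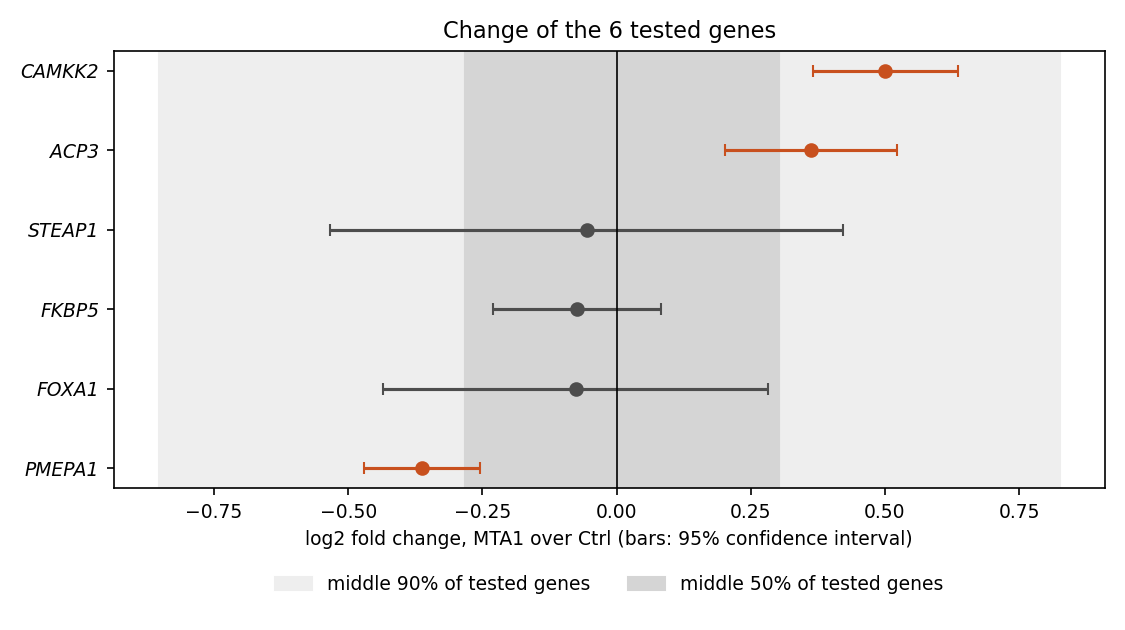
Log2 fold change (MTA1 over Ctrl, horizontal axis) of the 6 tested genes with 95% confidence intervals, orange where the adjusted p was under 0.05, over bands that hold the middle 50% and the middle 90% of all tested genes. CAMKK2 at 0.50, ACP3 at 0.36 and PMEPA1 at -0.36 lie outside the inner band and inside the outer one, and the widest interval is that of STEAP1.

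Levels of different genes can be compared only per length, in the deposited FPKM. In Ctrl the order was PMEPA1 (9.94 ± 0.809 FPKM), ACP3 (2.03 ± 0.0379), CAMKK2 (1.29 in each of the 3 libraries), FKBP5 (1.26 ± 0.0945), STEAP1 (0.573 ± 0.0896), FOXA1 (0.367 ± 0.0551) and SPDEF (0.0133 ± 0.0153). All neighbours in this order had ranges that did not overlap, except CAMKK2 and FKBP5. The order was the same in the MTA1 group, where CAMKK2 (1.91 ± 0.0208 FPKM) and FKBP5 (1.26 ± 0.125 FPKM) no longer overlapped. PMEPA1 was 4.89 times ACP3 in Ctrl and 2.96 times in the MTA1 group, since the first fell and the second rose. Among all genes with FPKM values, PMEPA1 ranked above 90.4% in Ctrl, ACP3 above 76.7%, CAMKK2 above 71.8%, FKBP5 above 71.6%, STEAP1 above 62.7% and FOXA1 above 57.9%.

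**Figure D3:**
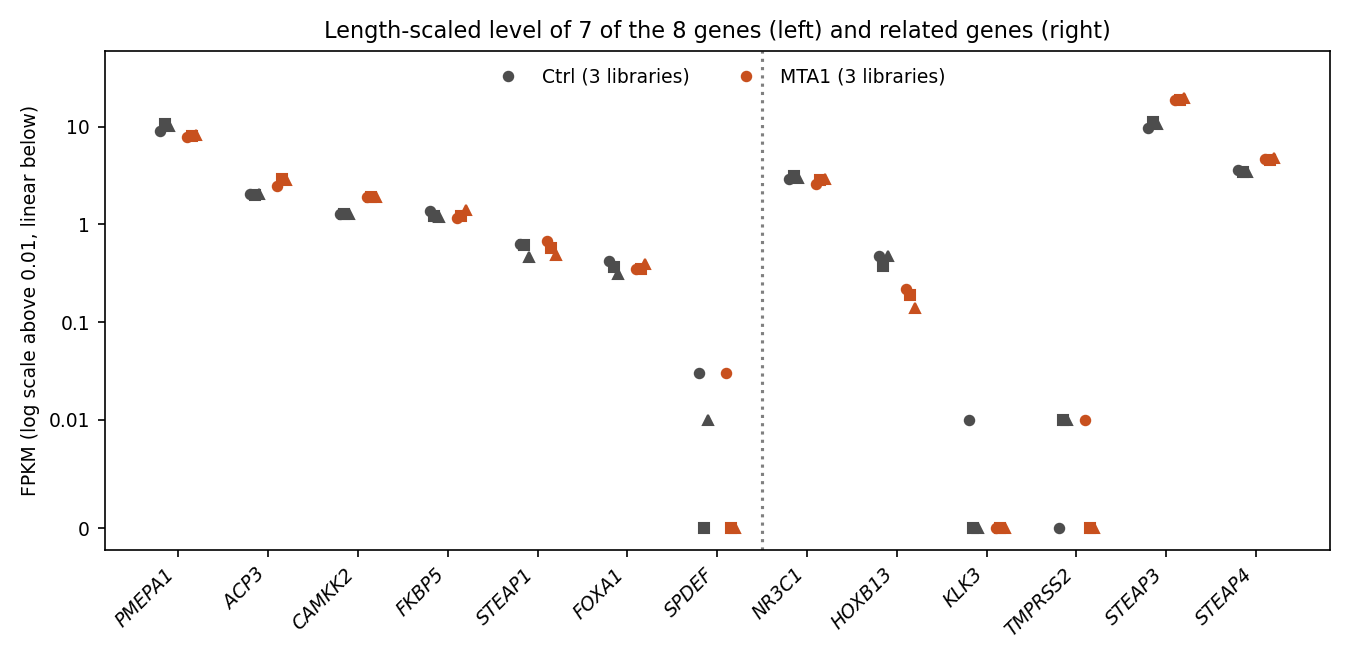
FPKM (vertical axis, logarithmic above 0.01 and linear below) in each Ctrl (grey) and MTA1 (orange) library for 7 of the 8 genes, left of the dotted line, and for related genes on the right, with circle, square and triangle for replicates 1, 2 and 3. The set spans from PMEPA1 near 10 to SPDEF at 0.03 or less, KLK3 and TMPRSS2 are at 0.01 or less in all libraries, and STEAP3 is above STEAP1 throughout.

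Defining markers of luminal prostate cells were only partly present. KLK3, the gene of prostate-specific antigen, had 1 count in Ctrl replicate 1 and 0 in the other libraries. TMPRSS2, an androgen-induced protease, had 0 to 2 counts per library. The luminal keratin KRT8 stood at 1886 ± 43.9 CPM in Ctrl and fell to 1541 ± 56.9 CPM (-0.29 ± 0.042), and KRT18 stood at 1343 ± 59.4 and 1267 ± 72.3 CPM without passing (-0.08 ± 0.047). Both keratins, and KRT17 below, have pseudogenes, which makes their counts uncertain. Of 25 luminal lineage markers, 14 had no row in the table or stayed under 1 CPM in both groups.

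Of 14 luminal markers tested, 2 rose and 5 fell, with a median of -0.07 and 50% called. PSCA, a surface antigen of the prostate, fell from 28.9 ± 1.51 to 15.3 ± 0.465 CPM (-0.92 ± 0.058) and CD24 from 59.3 ± 1.39 to 42.1 ± 1.09 CPM (-0.49 ± 0.046). EPCAM rose from 17.4 ± 2.00 to 25.4 ± 1.93 CPM (0.55 ± 0.073). Of 14 basal markers tested, 7 rose and 3 fell, with a median of 0.27. CD44 rose from 307 ± 10.7 to 510.1 ± 4.36 CPM (0.73 ± 0.040), the laminin receptor chain ITGA6 from 13.3 ± 0.575 to 24.6 ± 0.755 CPM (0.89 ± 0.059) and the cytolinker DST from 41.9 ± 0.492 to 61.6 ± 1.81 CPM (0.56 ± 0.046, and 0.30 on log2(FPKM + 1)), while KRT17 fell from 1370 ± 41.8 to 721 ± 12.3 CPM (-0.93 ± 0.040). Larger falls were those of KRT14, from 4.08 ± 0.890 to 0.657 ± 0.405 CPM (-2.63 ± 0.26), and SNAI2, from 5.54 ± 0.115 to 1.30 ± 0.241 CPM (-2.09 ± 0.14). KRT15 rose by 0.14 ± 0.053, and KRT5 did not pass (0.25 ± 0.38). TP63 had 25 counts over Ctrl and 14 over the MTA1 libraries and was not tested. In these bulk libraries, fewer cells of a type and less RNA per cell cannot be told apart. Of 8 neuroendocrine markers tested, 3 rose and 1 fell. The neuronal enolase ENO2, which is also induced by low oxygen, rose from 12.2 ± 0.737 to 38.5 ± 1.13 CPM (1.66 ± 0.058), SCG2 from 4.80 ± 1.17 to 11.0 ± 0.363 CPM (1.205 ± 0.11), and the neural splicing factor SRRM4 fell from 1.25 ± 0.154 to 0.311 ± 0.0744 CPM (-1.99 ± 0.28, with -0.56 on log2(FPKM + 0.1) and -0.08 on log2(FPKM + 1)).

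The wider androgen response went both ways. Of 51 other androgen-responsive genes tested, 15 rose and 15 fell, which is 58.8% called against 58.1% of all tested genes, and the median was -0.07. NDRG1, a gene induced by androgen and by low oxygen, rose from 106 ± 3.36 to 323 ± 4.38 CPM (1.61 ± 0.040). ELOVL5, a fatty acid elongase, rose from 30.5 ± 1.63 to 42.3 ± 1.78 CPM (0.47 ± 0.054), and SAT1, of polyamine breakdown, from 197 ± 0.658 to 246 ± 2.96 CPM (0.32 ± 0.037). DBI, an acyl-CoA-binding protein, fell from 679 ± 11.7 to 372 ± 13.4 CPM (-0.87 ± 0.040). Against the same 58.1%, the share called was 52.9% for the ETS factors, 50% for the cofactors and 54.5% for the AMPK genes. It was also 50% for the neuroendocrine markers. Shares were higher for the basal markers (71.4%), the glucocorticoid-induced (73.7%), TGF-beta (76.9%) and iron uptake genes (85.7%) and the FKBP family (92.3%). As for the chaperones, small changes can pass where the SE is small, so these shares do not measure the size of change. The plot of related gene lists shows these groups side by side.

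**Figure D4:**
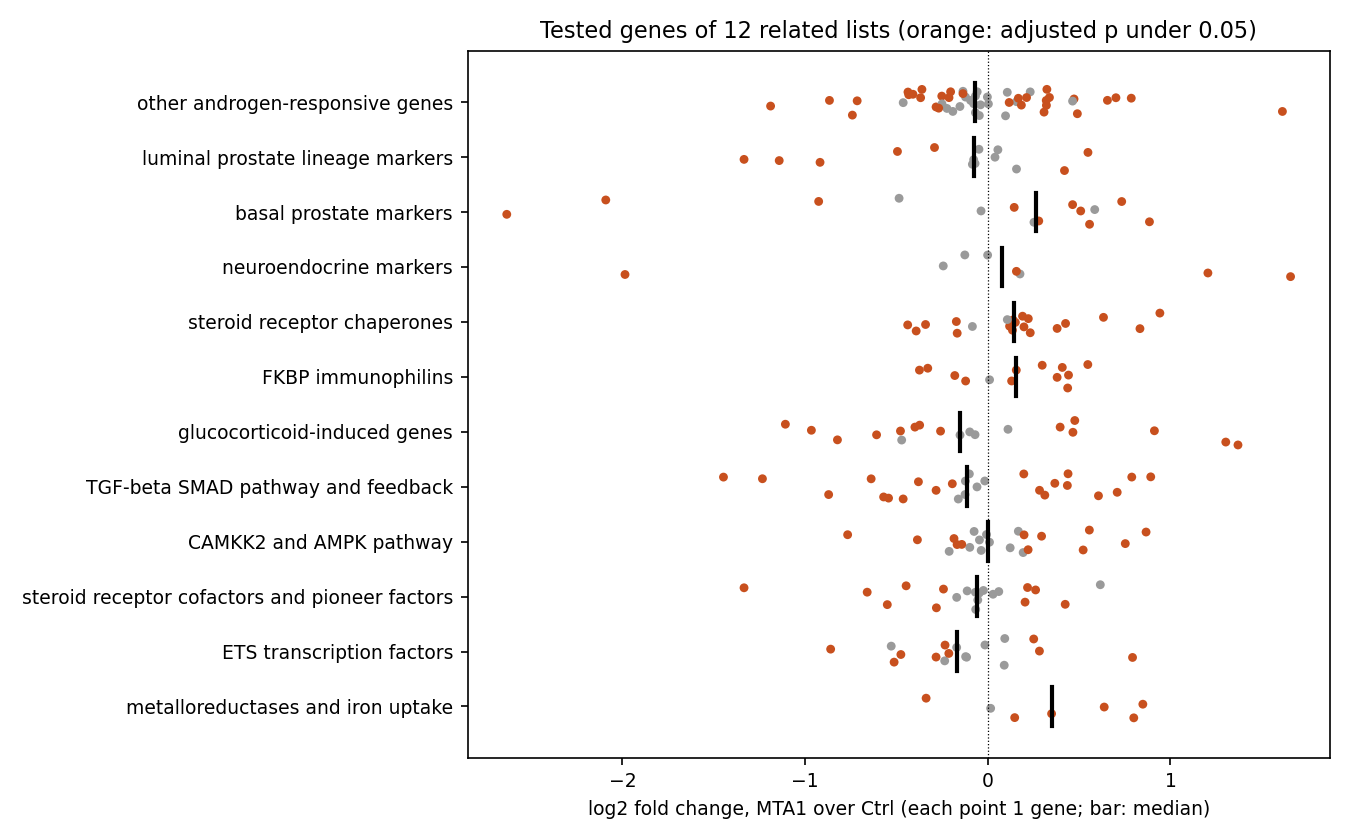
Log2 fold change (MTA1 over Ctrl, horizontal axis) of each tested gene in 12 related lists, 1 point per gene (vertical scatter within a list has no meaning), orange where the adjusted p was under 0.05, with a black bar at the list's median. The other androgen-responsive genes spread to both sides of 0 around a median of -0.07, and the receptor chaperones lie mostly to the right with a median of 0.14.

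Markers of other cell types were also measured, although all libraries came from the PC-3 line. The summed level of 6 fibroblast markers was 49.2 to 55.1 CPM in Ctrl and 36.2 to 38.0 CPM in the MTA1 group, most of it from COL1A1 and LUM. COL1A1 fell by 0.94 ± 0.056 on the log2 scale (by 0.60 on log2(FPKM + 1)), PDGFRB fell by 0.50 ± 0.13 (by 0.12 on that scale), and the other 4 did not pass. The 5 leukocyte markers summed to 1.46 to 2.11 CPM and 1.06 to 1.51 CPM, with PTPRC at 4 counts over Ctrl and 3 over the MTA1 libraries. The 3 endothelial markers summed to 11.2 to 12.9 CPM and 10.8 to 11.1 CPM, nearly all PECAM1, which did not pass (edgeR adjusted p = 0.136). The part of these levels in the changes of CAMKK2, ACP3 and PMEPA1 was not tested.

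Genes with profiles close to those of the members were taken from 9468 tested genes with a mean of 5 CPM or more, by the root mean square difference of log2 CPM, centred on each gene's mean, over the 6 libraries. Closest to CAMKK2 were TNFRSF10B, a death receptor (difference 0.0120, log2 fold change 0.48), EMC7, of a membrane protein insertion complex (0.0146 and 0.48), and PTDSS1, a phosphatidylserine synthase (0.0157 and 0.47). Closest to PMEPA1 were PSMG4, a proteasome assembly chaperone (0.0233 and -0.36), PITPNC1, a phosphatidylinositol transfer protein (0.0255 and -0.39), and SRSF3, a splicing factor (0.0287 and -0.36). These genes were picked for their likeness, so their closeness is a description only.

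**Figure D5:**
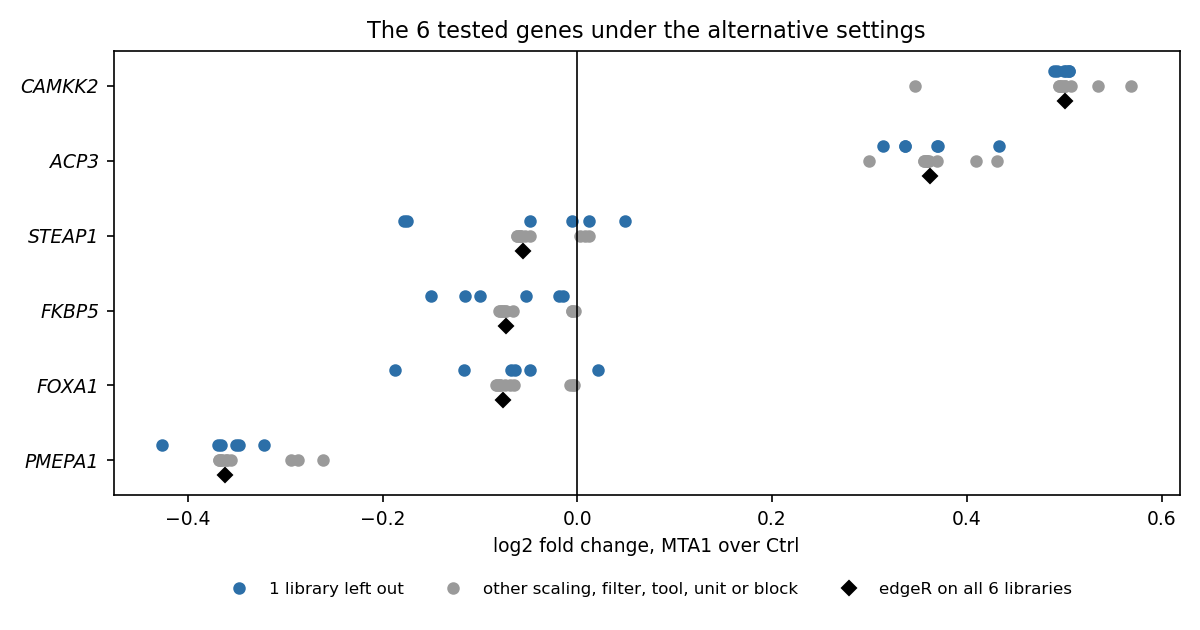
Log2 fold change (MTA1 over Ctrl, horizontal axis) of the 6 tested genes in edgeR with all libraries (black diamonds), with each library left out in turn (blue) and with the other alternative settings (grey). CAMKK2, ACP3 and PMEPA1 keep their side of 0 in all of them, while STEAP1 and FOXA1 cross it.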

How the data were processed

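Total RNA of PC-3 cells was made into stranded libraries and sequenced as paired reads, per the labels. The authors deposited whole-number read counts per gene, without normalization, and FPKM values, which they scaled for gene length and depth and rounded. Aligner, counter, strand setting, genome build and gene annotation: not given in the sources used here. DESeq2 appears in the submitters' processing notes with no role. The NC columns were assigned to Ctrl by elimination, with replicate numbers kept.

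The counts were then tested with edgeR 4.0.16 (R 4.3.3), using filterByExpr defaults, TMM and a 2-sided quasi-likelihood F test that had no term besides group, with Benjamini-Hochberg adjustment over 15423 genes. The procedure was tested on simulated data. Alternatives used limma 3.58.1 and DESeq2 1.42.0. The members and the 17 related lists were chosen with earlier results of these data known. Named genes are the 8 members, up to 3 called genes per list with the smallest p in the majority direction and 1 in the other, and the 3 profiles closest to the members with the highest and lowest change. Not all are given in the text, and some are not reported here. Outside that rule, KLK3, TMPRSS2, KRT18, TP63, KRT5, KRT14, KRT15, LUM, PTPRC and PECAM1 come from the cell type markers. NKILA, TTC6 and STEAP1B were named because they overlap or resemble a member. STEAP4, PRKAA1, PRKAA2, SNAI2, HSPA4 and STUB1 were chosen after their values were seen. A member under 1 CPM in both groups counts as near the detection limit. Promoter sequences are from RefSeq (GRCh38.p14), and gene overlaps from GENCODE 29. No replicate libraries were merged.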

Additional observations from a re-analysis of the deposited data

How the results depend on the processing

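CAMKK2, ACP3 and PMEPA1 kept their direction and their call under all alternatives, except that ACP3 (0.36) lost its call in a test against a 1.2-fold change that was chosen after seeing the data (edgeR adjusted p = 0.0959). Under that minimum fold, 4650 genes passed (2385 higher and 2265 lower), with 1 member higher and 1 lower, and 45 higher and 40 lower genes in the related lists. NR3C1, SAT1, KRT8, CYBRD1 and ACP1 also lost their calls there. Of the members that did not pass, FKBP5 stayed negative in all alternatives (-0.15 to -0.0027). The direction of FOXA1 and STEAP1 was not stable. FOXA1 ran from -0.19 to 0.022 with 1 library left out, positive without Ctrl replicate 1. STEAP1 ran from -0.18 to 0.049, positive without Ctrl replicate 1 or MTA1 replicate 3, and stood at 0.012 with scaling by library size only, 0.0076 on log2(FPKM + 0.1) and 0.0031 on log2(FPKM + 1). The cause was not tested. Whether the replicate numbers pair the libraries is not known. Correlations of same-numbered deviations were 0.23, -0.06 and 0.08, and those of differently numbered ones ran from -0.27 to 0.19. With 3 libraries per group these values cannot decide it. With the replicate block 9139 genes passed, against 8954 without it, and no call of a member changed. SPDEF and STEAP2 were outside the filter, and depth limits them to the intervals given.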
